A study of Mus musculus with 5 samples.

Results

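Keratins other than the stress keratins Krt6a, Krt6b, Krt16 and Krt17 were followed in single cells of un-wounded and wounded mouse skin. Every gene whose symbol is Krt followed only by digits was taken, which gave 45 of the 27998 genes in the tables, and no measured value entered this choice. The samples were dissociated skin of C57BL/6 mice, sorted for live cells and captured in droplets with 10x Genomics 3' v1 chemistry, with 2 un-wounded and 3 wounded libraries. Wounded mice had received a 6-mm punch biopsy at 7 weeks of age, and a 10-mm punch taken on day 4 after wounding gave the skin, so that it held skin from around the wound as well as the wound. The age of the un-wounded mice is not given in the labels. The labels also do not say whether each library came from a separate animal, so that p-values measure only the spread between these libraries, which may be technical. Kept cells numbered 5042 and 5143 in the un-wounded and 7064, 4400 and 3988 in the wounded libraries, with median depths between 6035.5 and 7943.5 unique molecular identifiers (UMIs) per cell.

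Keratins are the intermediate filament proteins of epithelial cells. A filament is built from pairs of 1 type I and 1 type II chain, and keratinocytes change the pair they make as they move: Krt14 with Krt5 in the dividing basal layer, Krt10 with Krt1 in the spinous layer above it, and further chains in the hair follicle and its sheaths. Of the 45 genes 24 are type I and 21 are type II. Of the type I genes 23 lie on chromosome 11, all 21 type II genes lie on chromosome 15, and Krt18, a type I chain of simple epithelia, lies on chromosome 15 beside its partner Krt8 (build GRCm38).

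Promoters are shown for 5 keratins that, between them, were highest in 4 keratinocyte types below: Krt5 and Krt32 in basal cells, Krt10 in spinous cells, Krt79 in the upper follicle and Krt24 in the bulge and outer root sheath. They come from the RefSeq tables for GRCm38.p6, which held a promoter for 34 of the 45 genes, and run 5′ to 3′ from 250 bases before the start to 50 after it. The start used there lay within 200 bases of the 5′ end of the annotated gene for 32 of the 34. For Krt14 and Krt7 it lay 1518 and 1360 bases inside the gene, and neither window is shown. All 5 are on the minus strand, and capitals mark TATAAA on the gene's strand, the letters of a TATA box. The regions are chr15:101712856-101713155 for Krt5, chr11:99389315-99389614 for Krt10, chr15:101940275-101940574 for Krt79, chr11:99285213-99285512 for Krt24 and chr11:100088220-100088519 for Krt32.
Krt5: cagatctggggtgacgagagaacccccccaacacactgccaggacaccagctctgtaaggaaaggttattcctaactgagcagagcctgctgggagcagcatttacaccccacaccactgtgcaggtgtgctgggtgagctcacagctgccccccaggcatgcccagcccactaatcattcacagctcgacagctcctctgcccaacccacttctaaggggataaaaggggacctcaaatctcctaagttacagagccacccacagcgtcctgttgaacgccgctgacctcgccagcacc
Krt10: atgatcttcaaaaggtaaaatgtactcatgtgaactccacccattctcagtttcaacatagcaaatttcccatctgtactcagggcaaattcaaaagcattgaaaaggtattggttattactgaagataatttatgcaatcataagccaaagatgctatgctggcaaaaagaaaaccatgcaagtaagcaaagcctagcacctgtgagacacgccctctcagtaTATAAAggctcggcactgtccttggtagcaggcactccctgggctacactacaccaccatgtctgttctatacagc
Krt79: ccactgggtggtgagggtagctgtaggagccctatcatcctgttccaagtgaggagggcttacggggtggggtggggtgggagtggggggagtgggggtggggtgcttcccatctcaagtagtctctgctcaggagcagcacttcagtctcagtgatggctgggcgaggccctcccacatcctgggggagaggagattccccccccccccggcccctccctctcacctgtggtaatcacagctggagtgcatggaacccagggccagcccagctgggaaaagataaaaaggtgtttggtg
Krt24: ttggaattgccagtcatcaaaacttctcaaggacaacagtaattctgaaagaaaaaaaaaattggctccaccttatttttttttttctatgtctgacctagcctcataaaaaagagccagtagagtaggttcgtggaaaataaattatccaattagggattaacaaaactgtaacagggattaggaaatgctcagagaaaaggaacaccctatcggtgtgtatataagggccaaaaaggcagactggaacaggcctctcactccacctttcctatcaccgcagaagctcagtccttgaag
Krt32: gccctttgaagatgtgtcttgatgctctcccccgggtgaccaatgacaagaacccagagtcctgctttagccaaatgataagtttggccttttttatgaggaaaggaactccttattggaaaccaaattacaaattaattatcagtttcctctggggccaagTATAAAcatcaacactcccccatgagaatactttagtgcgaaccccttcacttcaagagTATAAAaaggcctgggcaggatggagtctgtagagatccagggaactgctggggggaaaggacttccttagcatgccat
TATAAA was present in the windows of 16 of 34 keratins, the 2 inside a gene included, against 8.32% of all 32851 promoters of that length. Its first base lay 40 to 20 bases before the start in 13 of 34 keratins, 10 of type I and 3 of type II, against 1.99% of all promoters. Krt10 held it 26 bases before the start and Krt32 both 29 and 88 bases before, while the promoters of Krt5, Krt79 and Krt24 did not hold these letters. The AP-1 motif TGAGTCA, searched on both strands, was in 1 of 34 keratin promoters against 5.2% of all, and the AP-2 motif GCCNNNGGC, also on both strands, was in 6 of 34 against 16.6%. A match describes letters in the window and does not show a binding site.

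Most of these keratins left some trace in skin, and few were abundant. At least 1 UMI was found for 38 of the 45 genes in some library and for 30 in every library. Per library, 35, 35 and 35 were detected in un-wounded libraries 1 and 2 and wounded library 1, and 33 and 32 in wounded libraries 2 and 3. Over all libraries together, 34 had at least 10 UMIs. Krt26, Krt34, Krt40, Krt72, Krt74, Krt76 and Krt83 had no UMI in any library, where a count of 0 allows up to 3 UMIs per library, for counting error only. Krt82 with 3 UMIs, Krt39 with 2 and Krt73 with 1 were found only in fibroblasts, which left 35 detected in keratinocytes.

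Keratinocytes were 84.4 and 51.4% of kept cells in the un-wounded and 44.7, 7.05 and 11.1% in the wounded libraries. Summed over whole libraries, the 45 keratins held 3.49 and 1.42% of UMIs in un-wounded skin and 1.65, 0.130 and 0.407% in wounded skin, and in such sums fewer keratinocytes and less keratin RNA per cell cannot be told apart. Within basal keratinocytes they held 4.17 and 2.77% against 4.38, 2.59 and 3.31%, and within spinous keratinocytes 4.28 and 2.84% against 4.26, 2.72 and 3.04%, so that the groups overlapped in both. Fibroblasts, which are not known for epidermal keratins, held keratin shares of 0.375 and 0.084% in un-wounded skin and 0.085, 0.013 and 0.016% in wounded skin. Their levels are given below for some keratins as a background, whose source was not tested and which was highest in un-wounded library 1. Between 26 and 63 barcodes were shared by any pair of libraries.

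Keratinocyte types were named from marker genes that include no keratin, after clustering without any keratin gene. The markers included the hemidesmosome genes Itga6 and Col17a1 for basal cells, Krtdap, Sbsn and Dmkn for spinous cells, Cst6 and Defb6 for the upper follicle, Cd34 and Postn for the bulge and outer root sheath, and the lipid genes Scd1 and Mgst1 for sebocytes. Basal cells numbered 2109 and 809 in un-wounded and 1350, 25 and 87 in wounded ones, and spinous cells 955 and 696 against 763, 42 and 120. Upper follicle cells numbered 338 and 202 against 234, 37 and 43. Bulge and outer root sheath cells numbered 111 and 282 against 65, 22 and 13, and sebocytes 73 and 33 against 154, 15 and 21; sums of under 20 cells were left out, which removed wounded library 3 and wounded library 2, respectively. A further follicle class of 1350 cells, called here Sostdc1+ Vsnl1+ after its leading genes, was separated from the upper follicle after the data were seen. Values are CPM, that is, a gene's UMIs in a cell type scaled to a total of 1000000 UMIs, and are listed in the order un-wounded 1, un-wounded 2, wounded 1, wounded 2, wounded 3.

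Of the 45 keratins 15 reached a mean of 10 CPM in some type. Krt14, Krt5 and Krt32 were highest in basal cells, Krt10, Krt1, Krt77, Krt78 and Krt2 in spinous cells, Krt79, Krt7 and Krt23 in the upper follicle, and Krt15, Krt24, Krt42 and Krt75 in the bulge and outer root sheath. None of these 15 keratins was highest in sebocytes or in Sostdc1+ Vsnl1+ cells. Cycling keratinocytes and unnamed clusters were left out of this ranking. In cycling cells Krt14 averaged 17003 CPM against 15322 in basal cells, Krt5 7479 against 6780 and Krt32 44.5 against 43.5, over 3 libraries, and Krt14 averaged 15897 CPM in the unnamed cluster 15. Krt7 averaged 165 CPM in the unnamed cluster 18, where 4 cells described below held most of it. For 7 of the 15, namely Krt1, Krt10, Krt24, Krt5, Krt77, Krt78 and Krt79, the range over libraries in the highest type did not overlap the range in the next type. All 15 kept the same highest type when keratins were left in the clustering and at a finer clustering.

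**Figure D1:**
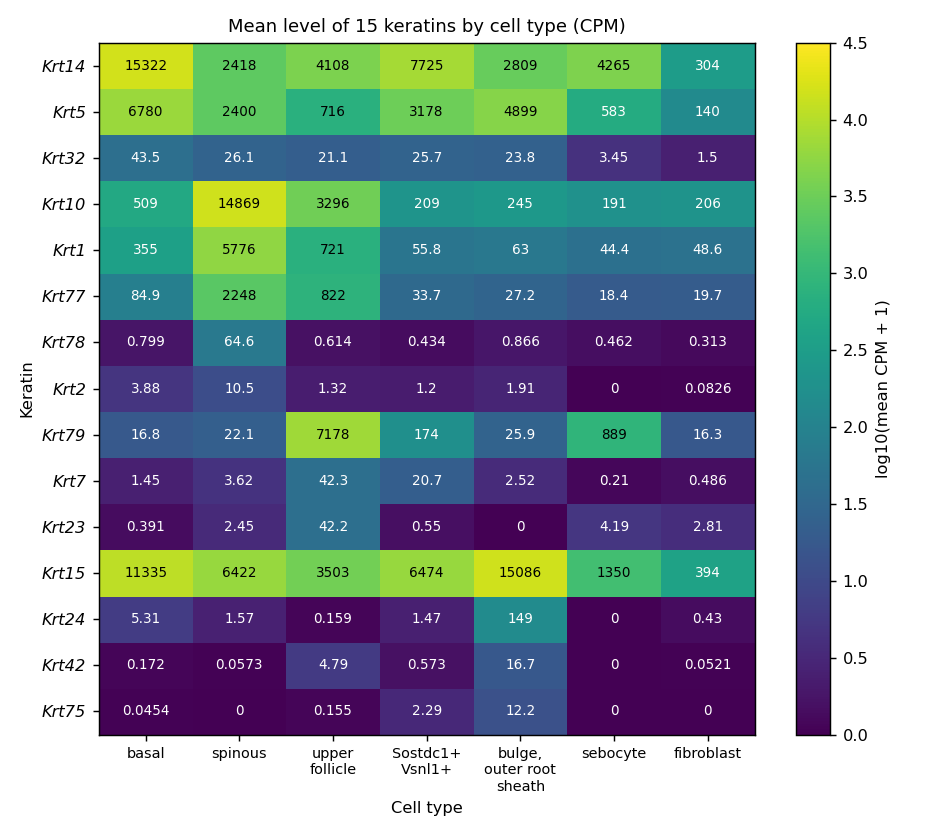
Mean CPM over libraries of the 15 keratins (rows) in 6 keratinocyte types and in fibroblasts (columns), with the colour showing log10(mean CPM + 1) and the printed number the mean CPM. Krt10, Krt1, Krt77 and Krt78 peak in spinous cells, Krt79 in the upper follicle and Krt24 in the bulge, while Krt14, Krt5 and Krt15 stand high in several types.

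The basal pair was spread over most keratinocytes. Krt14, the type I chain of the basal pair, stood at 15093, 10783, 20951, 11437 and 18345 CPM in basal cells. It was 2260, 1376, 3715, 1181 and 3557 CPM in spinous cells, lower than in basal cells in every library, and 11462, 5695, 10907, 3578 and 6981 CPM in Sostdc1+ Vsnl1+ cells. The ranges of un-wounded and wounded libraries overlapped in all 3 types. In basal cells the log2 fold change of Krt14, wounded against un-wounded, was 0.60 ± 0.37 (SE), with an edgeR adjusted p of 0.779. Of the 50-base stretches in the last 500 bases of the Krt14 transcript, 9.53% also occur in another transcript, mainly that of the stress keratin Krt16, so that a share of its reads is uncertain.

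Krt5, the type II partner, varied little between libraries in basal cells, at 6780, 6847, 7407, 6184 and 6683 CPM. In the bulge and outer root sheath it was 4695, 5115, 4599 and 5188 CPM in the 4 libraries tested, below the basal level in each. Both groups overlapped in basal cells, where the log2 fold change was 0.19 with an edgeR adjusted p of 0.987. The antisense gene model Gm44323 overlaps Krt5. In upper follicle cells Krt5 was 1222, 928, 573, 258 and 598 CPM, with both un-wounded libraries above the wounded ones, and the log2 fold change was -0.97 ± 0.38 with an edgeR adjusted p of 1.

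Krt32, best known as a hair cuticle keratin, was low and highest in basal cells, at 71.8, 45.5, 35.8, 30.2 and 34.2 CPM, against 6.04, 0.69, 0.58, 0.07 and 0.11 CPM in fibroblasts. Both un-wounded libraries lay above the 3 wounded ones in basal cells, but the difference did not pass the test (log2 fold change -0.55, edgeR adjusted p = 0.684). Over all keratinocytes Krt32 was 53.2, 34.5, 24.3, 16.7 and 14.7 CPM, again without overlap between groups (log2 fold change -1.09 ± 0.30, edgeR adjusted p = 0.252). In wounded against un-wounded upper follicle and spinous cells its log2 fold changes were -1.29 (edgeR adjusted p = 0.948) and -0.86 (edgeR adjusted p = 0.457). The antisense gene model Gm11571 overlaps Krt32.

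Krt15, a type I chain of basal and bulge cells that is widely used to mark follicle stem cells, was high in most keratinocytes. In the bulge and outer root sheath it was 18720, 12958, 15316 and 13351 CPM. In basal cells it was 18592, 9381, 14538, 6673 and 7493 CPM, which overlapped the bulge range, and in spinous cells 12510, 5860, 7468, 3291 and 2981 CPM. Un-wounded library 1 was highest in each of these types, and wounded libraries 2 and 3 were lowest in basal and spinous cells. In upper follicle cells Krt15 was 7650, 3235, 3883, 1408 and 1341 CPM. Fibroblasts averaged 394 CPM of Krt15. The smallest ratio to fibroblasts of the same library was 5.14 in upper follicle cells and 2.14 in sebocytes. The wound effect of Krt15 did not pass the test in basal cells (log2 fold change -0.36, edgeR adjusted p = 0.947), in spinous cells (-0.87 ± 0.40, edgeR adjusted p = 0.675) or in upper follicle cells (-1.15 ± 0.47, edgeR adjusted p = 1).

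The spinous pair was far higher in spinous cells than in any other type. Krt10, the type I chain of differentiating epidermis, was 16774, 11948, 18821, 13012 and 13794 CPM in spinous cells. In basal cells it was 782, 431, 579, 393 and 360 CPM, against a fibroblast background of 511, 196, 185, 76.1 and 63.9 CPM. After each cell was thinned to 1500 UMIs, 55.2 and 36.0% of un-wounded and 32.3, 40.0 and 25.3% of wounded basal cells held a Krt10 UMI, against 50, 27.8, 24.8, 11.4 and 10.5% of fibroblasts. Before thinning the shares of basal cells were 92.8, 81.3, 70.2, 56.0 and 56.3%, at median depths between 6095 and 9546 UMIs, and those of fibroblasts 87.2, 68.8, 70.2, 42.2 and 50.5%, at 4857 to 9498 UMIs. Basal cells were thus above the background in every library after thinning, although in un-wounded library 1 the exact Clopper-Pearson 95% intervals, 53.0 to 57.3% and 45.4 to 54.6%, overlapped. Such intervals cover counting error only. In the upper follicle Krt10 averaged 3296 CPM.

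Krt1, the type II partner of Krt10, was 6258, 4427, 7451, 5385 and 5359 CPM in spinous cells, where the groups overlapped. In basal cells it was 241, 150, 252, 1028 and 105 CPM. The high value of wounded library 2 came from 170 UMIs in 25 cells, of which 111 were in 1 cell and 19 in the next. The basal log2 fold change of Krt1 was 1.24 ± 0.46 with an edgeR adjusted p of 0.27, and it turned to -0.29 when cells scored as doublets were kept. It passed the edgeR test without un-wounded library 1 (adjusted p = 0.0337), wounded library 1 (0.0107) or wounded library 3 (0.00209).

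In spinous cells neither chain differed between groups beyond the spread of libraries: the log2 fold change was 0.23 for Krt10 and 0.33 for Krt1, each with an edgeR adjusted p of 1. The ratio of Krt1 to Krt10 UMIs in spinous cells lay in a narrow band, 0.373 and 0.371 in un-wounded and 0.396, 0.414 and 0.389 in wounded ones. The groups did not overlap, with an exact two-sided permutation p of 0.1, the smallest that 10 assignments of libraries allow, and a Benjamini-Hochberg value of 0.35 over the 7 types of this ratio. The ratio in the upper follicle, 0.216 and 0.175 against 0.213, 0.258 and 0.252, was lower than in spinous cells in every library.

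Krt77, a type II chain of the upper epidermis and of sweat ducts, was 2003, 2038, 2024, 3172 and 2005 CPM in spinous cells and 828, 812, 848, 856 and 766 CPM in the upper follicle. Apart from wounded library 2, its spinous level was almost the same in every library (log2 fold change 0.38, edgeR adjusted p = 0.981). Krt78, a type II chain of stratified epithelia, was 85.2, 58.5, 73.0, 66.2 and 40.0 CPM in spinous cells and averaged 0.866 CPM or less in each of the other 5 types. Krt2, a type II chain of late suprabasal cells that is strongest in ear, tail and sole, was low here, in spinous cells, at 15.9, 9.10, 8.99, 5.52 and 13.1 CPM.

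Within the spinous class, cluster 17 with 122 cells stood out for these late chains, as a description of a cluster. It held 7794 CPM of Krt77 and 356 CPM of Krt78, with 28010 CPM of Krt10, 6363 CPM of Krt1 and 616 CPM of Krt14. Its Krt77 level was 8003, 7677 and 7201 CPM in un-wounded libraries 1 and 2 and wounded library 1, and its Krt78 level 422, 326 and 321 CPM. So Krt77 and Krt78 stood more than 3 times above the level of the whole spinous class in each of these libraries, while Krt1 was near it.

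**Figure D2:**
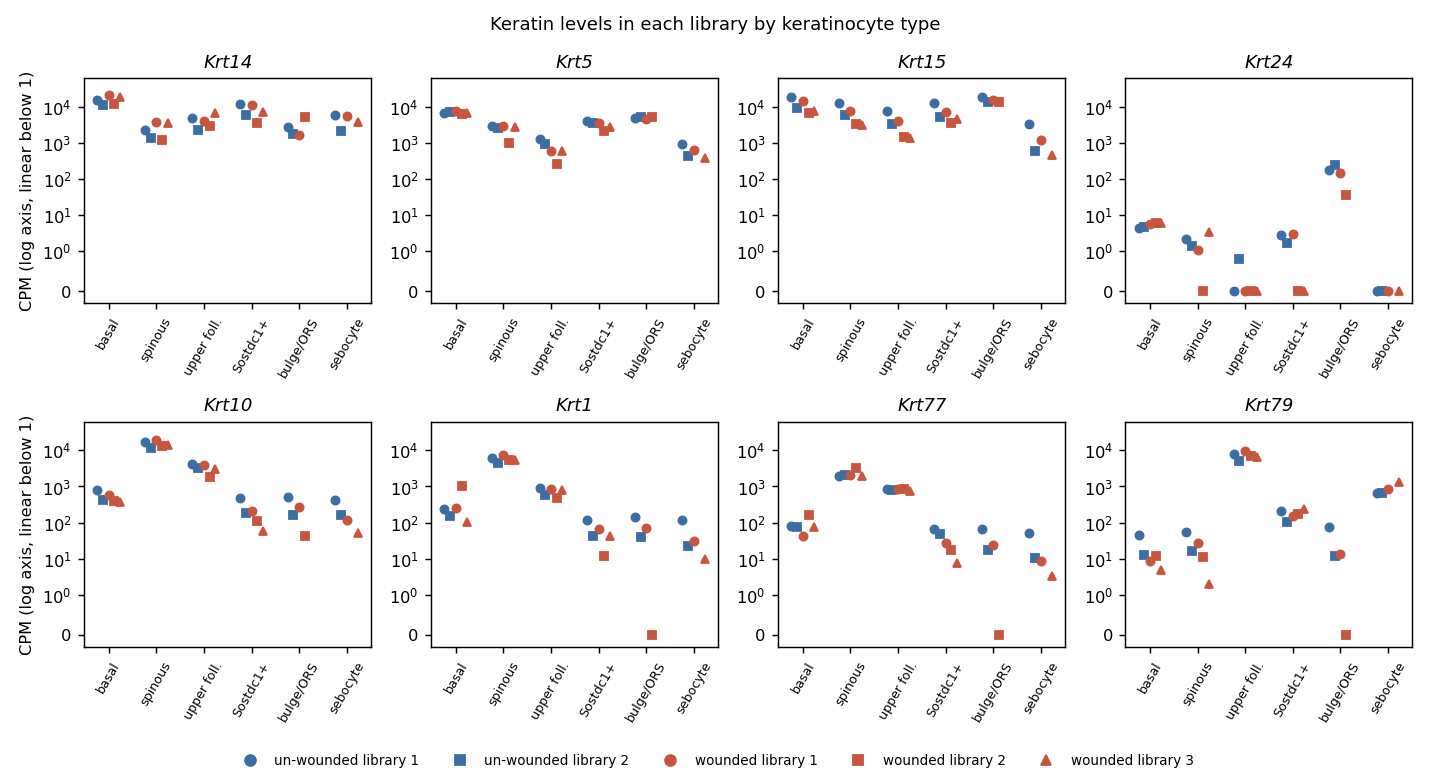
CPM of 8 keratins (panels, log axis that is linear below 1) in 6 keratinocyte types (x axis), 1 point per library with at least 20 cells, blue for un-wounded and red for wounded. Krt10, Krt1, Krt24 and Krt79 are far higher in 1 type than in the others. For Krt24 in the bulge both blue points lie above both red ones, and for Krt10, Krt1 and Krt79 blue and red mix in the highest type.

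Krt79, a type II chain known from the cells that line the follicle canal, was highest in the upper follicle. It stood at 7754, 5211, 9595, 6955 and 6376 CPM there, and at 662, 665, 878 and 1351 CPM in sebocytes of the 4 libraries tested. In Sostdc1+ Vsnl1+ cells it was 206, 101, 148, 173 and 242 CPM. After thinning to 1500 UMIs, 76.6, 79.2, 84.2, 89.2 and 79.1% of upper follicle cells held a Krt79 UMI, against 6.51, 2.13, 1.04, 0.368 and 0.710% of fibroblasts. Un-wounded and wounded libraries overlapped in the upper follicle (log2 fold change 0.40 ± 0.38, edgeR adjusted p = 1). In sebocytes both wounded libraries lay above both un-wounded ones, but the difference did not pass the test (0.74 ± 0.33, edgeR adjusted p = 0.999).

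Krt79 in basal cells gave the only wound call within a keratinocyte type, at levels near the background. It was 46.2, 12.3, 8.66, 12.1 and 4.72 CPM in basal cells and 46.6, 14.5, 13.9, 3.41 and 2.98 CPM in fibroblasts. Un-wounded libraries were above the wounded ones in basal cells, un-wounded library 2 by little, and the fibroblast values had un-wounded library 1 highest as well. Krt79 fell by 1.71 ± 0.44 on the log2 scale in wounded basal cells (edgeR adjusted p = 0.0255), the only 1 of 12 keratins tested, where 0.0924% of all genes were called lower and 2.13% in either direction. With an unadjusted p under 0.05 there were 3 of 12 keratins in basal cells and 8.6% of all genes by edgeR. After thinning, 6.78% of basal cells and 6.51% of fibroblasts of un-wounded library 1 held a Krt79 UMI (before thinning, 24.04 and 19.88% at median depths of 6220 and 4857 UMIs). The basal level in that library was thus near the fibroblast background, and whether its basal cells made Krt79 was not tested. The part of this background in the call was not tested. Without un-wounded library 1 the log2 fold change was -0.47 (edgeR adjusted p = 0.892), without wounded library 1 -2.03 (edgeR adjusted p = 0.0838), with DESeq2 -1.75 (adjusted p = 0.503), and with cluster 15, an unnamed cluster described below, counted as basal it was 1.91. The call was also lost with no filter on low counts (edgeR adjusted p = 0.162), with keratins or doublets kept in the clustering (log2 fold changes of -0.66 and -0.34), with a mitochondrial limit of 5% (-1.02) and with cycling cells counted as basal (-0.12).

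**Figure D3:**
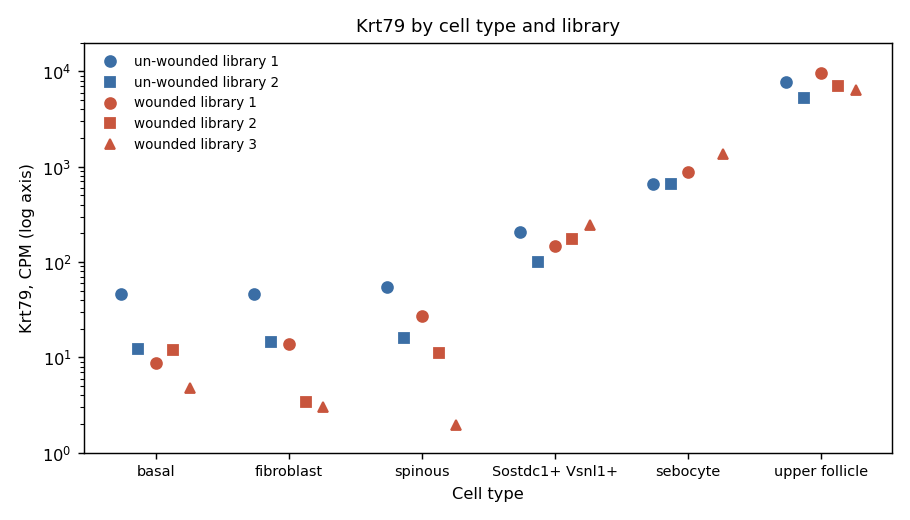
Krt79 CPM (log axis) in 6 cell types (x axis), 1 point per library with at least 20 cells, blue for un-wounded and red for wounded. Upper follicle points lie between 5211 and 9595 CPM, and basal points lie among the fibroblast points, with un-wounded library 1 highest in both.

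Krt7, a type II chain of glandular and follicle epithelium, was 38.9, 43.1, 46.6, 25.3 and 57.7 CPM in the upper follicle. In Sostdc1+ Vsnl1+ cells it was 39.8, 18.8, 28.0, 11.9 and 4.94 CPM, so that the ranges of both follicle classes overlapped. Krt23, a divergent type I chain, was 61.1, 13.6, 77.6, 50.7 and 7.87 CPM in the upper follicle. Fibroblasts held 237 of the 622 Krt23 UMIs, 90 of them in wounded library 1 and 134 in wounded library 3. Wound effects in the upper follicle were 0.32 for Krt7 and 0.50 for Krt23 on the log2 scale, each with an edgeR adjusted p of 1.

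Krt24, a type I chain, was highest in the bulge and outer root sheath, at 179.9, 236, 146 and 35.7 CPM, against 0.43 CPM on average in fibroblasts and 5.31 CPM in basal cells. Un-wounded libraries were above the wounded ones, with wounded library 2 lowest. The log2 fold change was -1.02 ± 0.43 with an edgeR adjusted p of 1 over all genes, and it was -2.41 without wounded library 1 (edgeR adjusted p = 0.0319). The class held clusters that differed in this gene: cluster 12, with 218 cells, had 411 CPM and cluster 14, with 224 cells, had 17.6 CPM. Cluster 10, with 51 cells, had no Krt24 UMI. Cluster 12 was 37.8 and 55% of the un-wounded and 21.5 and 22.7% of the wounded cells of the class in the 4 libraries tested, and the part of this mix in the fold change was not tested. Krt42, a type I chain, was 20.9, 14.6, 31.2 and 0 CPM in this class. Krt75, the companion layer type II chain, was 10.5, 24.4, 6.93 and 7.14 CPM. Krt71, an inner root sheath chain, averaged 9.49 CPM, just under the limit of 10. Over all kept cells Krt42 had 115 UMIs, Krt75 79 and Krt71 69. The sums of this class in wounded libraries 1 and 2 held 288520 and 140144 UMIs of all genes, so that low values there rest on very few UMIs.

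Apart from Krt32 and Krt71, keratins of the inner root sheath and hair shaft averaged under 5 CPM in each named type. In cluster 18, an unnamed cluster of 225 cells, Krt27 and Krt28, inner root sheath chains, averaged 16.3 and 13.6 CPM, and Krt35, a hair chain, averaged 7.86 CPM. That cluster scored highest for markers of hair matrix and shaft, which was not used as a type name here. Krt80, a type II chain of differentiating epithelia, was highest in the upper follicle, at a mean of 6.82 CPM, and close to that in spinous cells, at 5.62 CPM. The other keratins averaged under 5 CPM in each of the 6 types.

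Among keratinocytes, most UMIs of the simple-epithelium keratins Krt8, Krt18 and Krt19 came from 4 cells. These 4 cells, 3 in wounded library 1 and 1 in wounded library 3, lay in cluster 18 and each had at least 10 UMIs of both Krt8 and Krt18, a limit chosen after the values were seen. They held 727 of 774 Krt8 UMIs in keratinocytes (93.9%), 711 of 737 Krt18 UMIs (96.5%), 218 of 243 Krt19 UMIs (89.7%) and 251 of 862 Krt7 UMIs (29.1%). With these cells, Krt8 had 10, 12, 84, 1 and 667 UMIs in the keratinocytes of the libraries, and without them 10, 12, 8, 1 and 16. Krt18 had 0, 5, 120, 2 and 610 UMIs with them and 0, 5, 6, 2 and 13 without. These are UMIs and not levels: the keratinocytes of the libraries held 28170919, 21901772, 22724597, 2099798 and 5649437 UMIs in all. The cell of wounded library 3 alone held 651 of the 727 Krt8 UMIs. Other genes high in the summed UMIs of the 4 cells were Tm4sf1, Fgb, Upk3a, Wfdc18 and Csn3, which were not counted cell by cell. Of 6 markers of Merkel cells, the touch cells of skin that are known for Krt8 and Krt18, none had a UMI in them, and the cells are given no name here. Over all keratinocytes edgeR gave log2 fold changes of 4.62 for Krt19 (adjusted p = 0.0728), 6.77 for Krt8 (adjusted p = 0.29) and 8.72 for Krt18 (adjusted p = 0.185). Most keratinocyte UMIs of each came from the 4 cells, and a fit without these cells was not run. Krt19 and Krt8 passed without wounded library 2, with edgeR adjusted p of 0.000126 and 0.0107.

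By edgeR no keratin was called changed in whole libraries, in all keratinocytes or in any type other than basal cells. In spinous cells edgeR called 0 of 14 tested keratins (0.861% of all genes) and 2 had an unadjusted p under 0.05 (7.1% of all genes). In the upper follicle it called 0 of 10 (0.142%), with 3 at an unadjusted p under 0.05 (3.32%). In the bulge and outer root sheath edgeR called 0 of 6 (0.091%), with 1 at an unadjusted p under 0.05 (4.28%). In sebocytes it called 0 of 6 (0.044%), with 2 at an unadjusted p under 0.05 (4.35%), and in Sostdc1+ Vsnl1+ cells 0 of 9 (0.237%), with 2 (4.65%). DESeq2 called 0 in each of these 5 types. Over all keratinocytes edgeR called 0 of 25 (0.488%), with 5 at an unadjusted p under 0.05 (8.48%). DESeq2 called 2, Krt18 and Krt19 (2.02% of all genes), most of whose keratinocyte UMIs lay in the 4 cells above. No DESeq2 fit without these cells was run. Over whole libraries edgeR called 0 of 25 (0.587%), with 8 at an unadjusted p under 0.05 (25.9%). DESeq2 called 6 there (16.1% of all genes), with Krt18 and Krt19 higher and Krt2, Krt24, Krt32 and Krt80 lower. The keratins not tested in a type had too few UMIs for the filter on low counts, and those that passed are not all 45.

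The median log2 fold change of the keratins tested was -0.27 in basal cells and -0.09 in spinous cells, against -0.04 for all genes in both. In whole libraries it was -1.43 against -0.04, together with the smaller share of keratinocytes in the wounded libraries. The part of that share in the whole-library median was not tested.

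**Figure D4:**
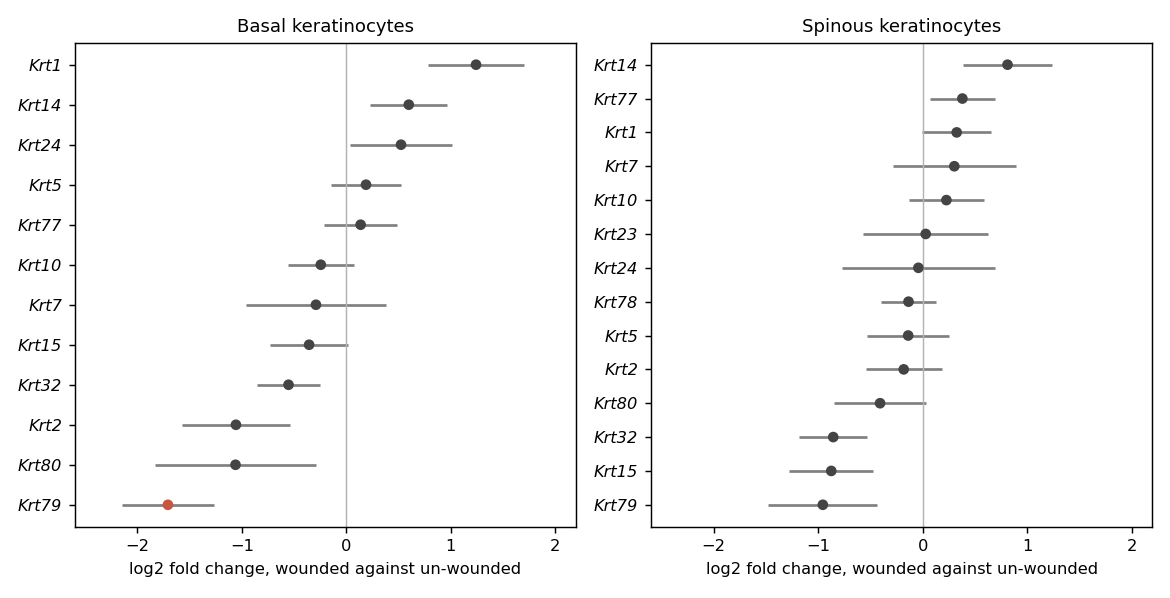
Log2 fold change, wounded against un-wounded, with its standard error (bars), for the 12 keratins tested in basal cells (left) and the 14 tested in spinous cells (right), from edgeR. Krt79 in basal cells is the only red point, the colour of an adjusted p under 0.05.

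The wound effect differed between spinous and basal cells for 2 of 14 keratins, in a fit of both types with the library as a block. The difference, spinous minus basal, was 1.17 ± 0.25 on the log2 scale for Krt79 (edgeR adjusted p = 0.00168) and -0.53 ± 0.14 for Krt15 (edgeR adjusted p = 0.0198), where 0.228% of all genes were called higher and 0.457% lower (0.685% in all). An unadjusted p under 0.05 was reached by 7 of 14 keratins and 6.69% of all genes in that edgeR fit. For Krt79 both types lay near the fibroblast level, at 54.3, 15.8, 27.3, 11.03 and 1.97 CPM in spinous cells, and the difference turned to -1.01 without wounded library 1 and to -0.42 when keratins were left in the clustering. The Krt79 call was also lost without un-wounded library 1 (edgeR adjusted p = 0.627) or un-wounded library 2 (edgeR adjusted p = 0.0812). For Krt15 the call was lost without un-wounded library 1 (adjusted p = 0.844), un-wounded library 2 (0.81), wounded library 2 (0.0674) or wounded library 3 (0.352), all by edgeR, with log2 differences between -0.57 and -0.37 over all 5 such fits.

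Krt15 set against Krt14, both type I chains of the same cells, gave a ratio that no scaling of the library enters. Fibroblasts held both chains as well, at means of 394 CPM for Krt15 and 304 CPM for Krt14. Their keratin share was highest in un-wounded library 1, and the part of this background in the ratios was not tested. The ratio of Krt15 to Krt14 UMIs in basal cells was 1.23 and 0.87 in un-wounded and 0.694, 0.584 and 0.408 in wounded ones, with no overlap (exact two-sided permutation p = 0.1, the smallest possible, Benjamini-Hochberg value 0.35 over 7 types). In spinous cells it was 5.54 and 4.26 against 2.01, 2.79 and 0.838, and in upper follicle cells 1.57 and 1.46 against 0.996, 0.484 and 0.202, again without overlap (exact permutation p = 0.2 in each). In sebocytes it was 0.554 and 0.272 against 0.215 and 0.123, also without overlap (exact permutation p = 0.333, the smallest possible there). In the bulge and outer root sheath, at 7.11 and 7.30 against 9.17 and 2.59, and in Sostdc1+ Vsnl1+ cells, at 1.06 and 0.893 against 0.643, 1.004 and 0.647, the groups overlapped. The ratios and their types were chosen after values were seen, and 5 ratios were computed in 7 sets of cells each. Among those not described, Krt14 to Krt10 did not overlap between groups in basal, sebocyte and Sostdc1+ Vsnl1+ sums (exact permutation p = 0.2, 0.333 and 0.2). Krt77 to Krt1 overlapped in all keratinocytes and in basal, spinous and upper follicle cells, and lacked a library in the other sets.

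Clusters within a type were mixed differently between libraries. Cluster 1, led by Serpinb2, Ptgs2 and Fosl1, was 67.0 and 64.4% of the basal cells of wounded libraries 1 and 3 and 4.599 and 5.44% in the un-wounded ones. Within cluster 1 alone the Krt15 to Krt14 ratio was 0.713 and 0.430 in un-wounded and 0.646 and 0.320 in wounded ones 1 and 3, so that the groups overlapped. Within cluster 0, which held 36.8 and 27.7% of un-wounded spinous cells and 72.1 and 75.8% of those in wounded libraries 1 and 3, it was 5.70 and 5.69 against 1.99 and 0.757, without overlap.

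The ratio of Krt5 to Krt14 did not overlap between groups in spinous, upper follicle and sebocyte sums, and no p passed. The part of the fibroblast background in this ratio was not tested either. In spinous cells the ratio was 1.25 and 1.88 in un-wounded and 0.797, 0.836 and 0.739 in wounded ones, and in upper follicle cells 0.251 and 0.419 against 0.147, 0.089 and 0.090. The exact permutation p was 0.1 in each, with a Benjamini-Hochberg value of 0.233 over 7 types. In sebocytes it was 0.158 and 0.197 against 0.115 and 0.1, with an exact permutation p of 0.333, the smallest possible. In basal cells the groups overlapped at 0.449 and 0.635 against 0.354, 0.541 and 0.364. They also overlapped in the bulge and outer root sheath, at 1.78 and 2.88 against 2.75 and 1.006 (exact permutation p = 0.667), and in Sostdc1+ Vsnl1+ cells, at 0.353 and 0.621 against 0.311, 0.603 and 0.395 (exact permutation p = 0.7).

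**Figure D5:**
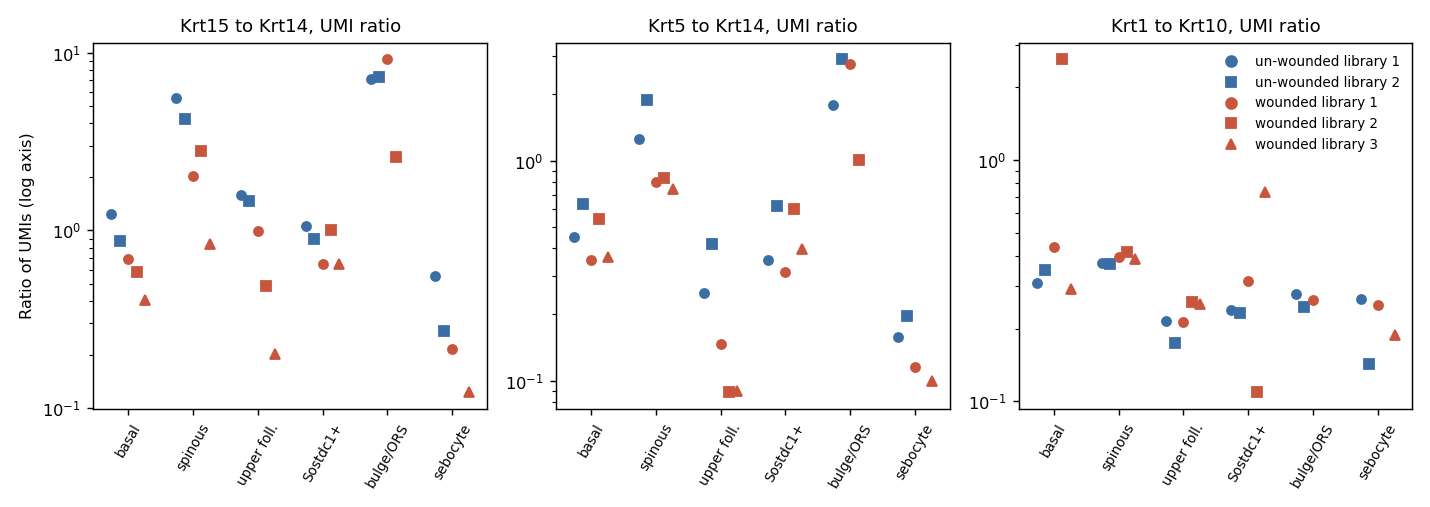
Ratio of UMIs (log axis) of Krt15 to Krt14, Krt5 to Krt14 and Krt1 to Krt10 in 6 keratinocyte types (x axis), 1 point per library, blue for un-wounded and red for wounded. Red points lie below blue ones for Krt15 to Krt14 in basal, spinous, upper follicle and sebocyte sums, and for Krt1 to Krt10 in spinous cells red points lie slightly above.

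Cluster 15 was an unnamed cluster that held keratins of both layers. Its highest marker scores were 0.87 for cycling and 0.7 for spinous cells. It was mostly of wounded libraries, with 9 and 9 cells in un-wounded and 59, 10 and 68 in wounded ones, and was led by BC100530, Krt6b, Stfa1 and S100a8, with a median of 14846 UMIs per cell. In wounded libraries 1 and 3 it held 13396 and 18398 CPM of the basal chain Krt14 together with 10898 and 5680 CPM of Krt10 and 5755 and 2894 CPM of Krt1. Krt79 stood at 232 and 336 CPM there. Over these 2 libraries Krt5 averaged 4509 CPM, against 6780 in basal and 2400 in spinous cells. Krt15 averaged 2705 CPM, below the means of 11340 in basal and 6422 in spinous cells. Its cells had the highest depth of the keratinocyte clusters described here, and the part of doublets in these values was not tested.

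Other genes of the filament network showed few calls. Of 13 partner genes, which link, anchor or bundle keratin filaments (plectin, desmoplakin, plakophilins and the like, with vimentin added as the filament of other cells), 10 were tested in basal and in spinous cells. Of these edgeR called 0 in basal cells (2.13% of all genes), with 2 at an unadjusted p under 0.05 (8.6%). In spinous cells edgeR called 0 (0.861%), with 1 at an unadjusted p under 0.05 (7.1%). The 2 in basal cells were Jup and Vim, and the 1 in spinous cells was Vim, the gene of vimentin. DESeq2 called 0 in both. Over whole libraries edgeR called 0 of 10, with 7 at an unadjusted p under 0.05 (25.9% of all genes), and DESeq2 called 6 (16.1% of all genes). Their median log2 fold change was 0.00 in basal cells, 0.10 in spinous cells and -1.56 in whole libraries (-0.04 for all genes), where the share of keratinocytes also differed. Of 10 differentiation genes, Ivl, a cornified envelope protein, was higher over all keratinocytes (log2 fold change 1.53 ± 0.23, edgeR adjusted p = 0.0347), where 0.488% of all genes were called. It passed in no single type in which it was tested (smallest edgeR adjusted p = 0.113). Its log2 fold change was 0.04 in basal, 0.88 in spinous, 0.60 in upper follicle, 3.45 in sebocyte and 2.14 in Sostdc1+ Vsnl1+ sums. The mix of types also differed between libraries, and its part in the sum was not tested. The wound effect on Krtdap and Sbsn, secreted proteins of the spinous layer, was higher in spinous than in basal cells, by 1.05 (edgeR adjusted p = 1.16e-07) and 0.91 (edgeR adjusted p = 6.37e-06) on the log2 scale, though both genes also helped to name the spinous clusters.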

How the data were processed

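The authors deposited UMI counts per gene and cell barcode for each library, and the submitters' processing notes name Cell Ranger 1.3.1 and mm10; the step that kept barcodes is not given in the sources used here. The keratins, gene lists and tests were chosen with earlier results of these data known. Cells had to hold 200 genes or more, with mitochondrial UMIs no higher than 10%, and the highest Scrublet scores were removed at 0.8% per 1000 barcodes (222, 231, 452, 167 and 136 cells). Library totals, in the order un-wounded 1 and 2, then wounded 1 to 3, were 33642571, 41041406, 59621412, 33537809 and 41654423 UMIs. Cells were clustered in scanpy 1.11.5 (2000 variable genes, 30 principal components, 15 neighbours, Leiden resolution 1.0) into 31 clusters, and keratinocytes, without any Krt gene, into 21. Naming a cluster required 3 of a type's markers at 10 CPM and a mean marker score 0.25 or more above that of every other type. Hair matrix and shaft was scored as a type but not used as a name. Cluster 18 scored highest for it (1.8, against 1.08 for the next type, with 4 markers at 10 CPM) and was therefore left unnamed. The margin of 0.25, the keratinocyte score limit of 0.5, the Cst6 limit of 1000 CPM that split off the Sostdc1+ Vsnl1+ class, the ratios, the TATAAA window and the limit of 10 UMIs for Krt8 and Krt18 were chosen after the data were seen.

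UMIs were summed per library and type where at least 20 cells were present, and tested over all genes by the quasi-likelihood method of edgeR 4.0.16 (R 4.3.3), after filterByExpr and TMM; the call is a Benjamini-Hochberg p under 0.05. CPM are plain; log2 fold changes carry TMM scaling. Ratios were compared by exact permutation over libraries. Libraries of 1 group differed by more than counting error, with a chi-square of 105 to 306 per degree of freedom, so none were merged. Alternatives were DESeq2 1.42.0, no filter, no TMM, a replicate block, each library left out, at least 50 cells, the 2 highest cells of each gene left out, keratins kept in the clustering, resolution 2.0, doublets kept, and a 5% mitochondrial limit; cycling cells or cluster 15 counted as basal were added later. The scripts were tested on simulated data. Keratins with a mean of 10 CPM in a keratinocyte type or an adjusted p under 0.05 were named with their values, list genes where they passed, and the others by counts, except low keratins named after their values were seen. Shares of cells were computed as percent of cells from the deposited counts.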

Additional observations from a re-analysis of the deposited data

Results flagged for a closer look

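The wound effect of 2 keratins differed between spinous and basal keratinocytes by a test of the difference itself, an interaction term in edgeR with library as a block. For Krt79 the difference, spinous minus basal, was 1.17 on the log2 scale (adjusted p = 0.00168). For Krt15 it was -0.53 (adjusted p = 0.0198). Over fits that each left out 1 library, the Krt79 difference ran from -1.01 to 1.3, so that its sign turned. The Krt15 difference ran from -0.57 to -0.37, and each of the calls was lost in some of these fits. The Krt79 levels behind it, 1.97 to 54.3 CPM in spinous and 4.72 to 46.2 CPM in basal cells, lie near those of fibroblasts, at 2.98 to 46.6 CPM. No group held enough libraries to look for single libraries that stand apart.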

How the results depend on the processing

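Of 127 alternatives for counts and other main values 92 stayed within 1.5 times, and of 319 for single keratins 272 kept direction and side of the threshold, 16 lost a call, 22 gained one and 9 turned. Counts of keratins called by edgeR were 1 in whole libraries, 6 in all keratinocytes, 0 in basal cells, 2 in sebocytes and 2 in Sostdc1+ Vsnl1+ cells with no filter on low counts. DESeq2 called 6 in whole libraries, 2 in all keratinocytes and 0 in basal cells. In basal cells the count was 0 with keratins kept in the clustering, with doublets kept, with a mitochondrial limit of 5% and with cycling clusters counted as basal, and in spinous cells 1 without the 2 highest cells per gene. For the difference between spinous and basal cells it was 5 without TMM scaling, 0 with no library block and 1 with keratins kept in the clustering. Leaving out 1 library at a time gave 0 to 9 in whole libraries (9 without wounded library 1), 0 to 3 in all keratinocytes (3 without wounded library 2), 1 to 2 in basal (2 without wounded library 3), 0 to 1 in spinous, 0 to 2 in bulge and outer root sheath (2 without wounded library 1), 0 to 4 in sebocytes (4 without un-wounded library 2), 0 to 2 in Sostdc1+ Vsnl1+ cells (2 without un-wounded library 2), and 0 to 4 for the difference between types (0 without either un-wounded library). With the replicate number as a block, the count was 3 in all keratinocytes, 4 in basal, 5 in spinous, 3 in upper follicle and 2 in Sostdc1+ Vsnl1+ cells. Apart from DESeq2, the share of all genes called in these alternative fits is not given here. Their counts therefore cannot be read as particular to keratins. Libraries of equal number deviated together, with r = 0.464 and 0.424 in whole libraries and 0.442 and 0.426 in all keratinocytes. In spinous sums r was 0.278 and 0.216, and in basal sums 0.207 and 0.158. The deviations of the 2 un-wounded libraries are mirror images, so the 2 values of a set are not independent. Only 2 pairs exist and the labels tie them in no other way, so the pairing is by number only. Log2 values that turned were Krt79 in basal cells with cluster 15 (1.91), the Krt79 difference with keratins kept (-0.42) and over libraries left out (-1.01 to 1.3), Krt5 in basal cells without TMM scaling (-0.01), Krt15 (-0.82 to 0.19) and Krt10 (-0.66 to 0.22) in basal cells over libraries left out, Krt1 in basal cells with doublets kept (-0.29), and Krt10 in basal cells with a 5% limit (0.00) and with cluster 15 (1.79). The cause was not tested. The mean share of basal cells with a Krt10 UMI was 37.7% after thinning to 1500 UMIs instead of 71.3%. At least 50 cells per library could not be fitted for upper follicle, bulge or sebocyte sums, nor a 5% limit for sebocytes.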

Other observations

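Some keratins had many of their few UMIs outside keratinocytes. Krt20, a keratin of Merkel cells and gut lining, had 89 of 114 UMIs in fibroblasts and 24 in endothelial cells. Krt36, a hair keratin, had 37 of 50 UMIs in fibroblasts. Krt4, a keratin of internal stratified epithelia, had 25 of 61 UMIs in mast cells, with 12, 2 and 11 in wounded libraries 1, 2 and 3. Krt19 had 191 UMIs in fibroblasts, at 0 and 0.138 CPM in un-wounded and 2.86, 3.61 and 4.65 CPM in wounded libraries. Neutrophils, 53, 138 and 40 cells in the wounded libraries, held 2.05, 0.134 and 0.291% of their UMIs in the 45 keratins.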
